A study of Rattus norvegicus with 6 samples.

Results

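The 10 genes described here encode the subunits of the troponin complex and tropomyosins of the sarcomere. They were chosen by name, not by a threshold on a value: the troponin I genes Tnni1, Tnni2 and Tnni3, the troponin T genes Tnnt1, Tnnt2 and Tnnt3, the troponin C genes Tnnc1 and Tnnc2, and the tropomyosin genes Tpm1 and Tpm2. They make up 10 of the 16575 genes that could be named on the array, and 15 probes measured them.

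Neonatal rat ventricular cardiomyocytes (NRVCs), primary heart muscle cells, came from Sprague-Dawley rats 1 to 2 days old, with the hearts of 8 to 10 rats pooled. The control group was 3 cultures kept without C3a, and the treated group was 3 cultures given 0.5 µg/ml C3a for 12 h. C3a is the small fragment that is cut from complement factor C3 when complement is activated, and it signals through its own receptor, C3aR. Both groups were kept in serum-free medium, and RNA of each culture was hybridised to its own 1-colour Agilent array. Nothing in the records says that replicates came from separate preparations, so p-values measure the spread between these 6 samples, which may be partly technical. The array comparison addressed which genes of cardiomyocytes respond to C3a.

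Troponin is the calcium switch of striated muscle. Troponin C binds calcium, troponin I holds the filament in the inhibited state, and troponin T anchors both to tropomyosin, the coiled coil that lies along actin and covers or uncovers the sites for myosin. Separate genes encode the cardiac, slow skeletal and fast skeletal forms. Slow skeletal troponin I (Tnni1) is the form of the fetal heart and is replaced by cardiac troponin I (Tnni3) around and after birth, so neonatal cells hold both. Slow skeletal and cardiac muscle share one troponin C (Tnnc1).

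Troponin I and troponin T genes lie near each other in the rat genome. In the RefSeq annotation of the GRCr8 assembly, Tnni3 and Tnnt1 are neighbours on chromosome 1 with 0 protein-coding genes between them. Tnni1 and Tnnt2 lie on chromosome 13 with 1 protein-coding gene between them, and Tnni2 and Tnnt3 lie on chromosome 1 with 5 between them. The 250 bases before the start of the genes of the first pairs are shown because each joins a cardiac gene to a slow skeletal one. Sequences are from RefSeq, on the plus strand of GRCr8, 5′ to 3′, with motif matches in capitals.
Tnni3, chr1:78342321-78342570: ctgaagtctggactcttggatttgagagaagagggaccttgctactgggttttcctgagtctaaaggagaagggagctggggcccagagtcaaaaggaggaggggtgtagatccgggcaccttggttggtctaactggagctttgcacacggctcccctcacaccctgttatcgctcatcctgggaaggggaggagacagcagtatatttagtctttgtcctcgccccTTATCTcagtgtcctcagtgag
Tnnt1, chr1:78348785-78349034: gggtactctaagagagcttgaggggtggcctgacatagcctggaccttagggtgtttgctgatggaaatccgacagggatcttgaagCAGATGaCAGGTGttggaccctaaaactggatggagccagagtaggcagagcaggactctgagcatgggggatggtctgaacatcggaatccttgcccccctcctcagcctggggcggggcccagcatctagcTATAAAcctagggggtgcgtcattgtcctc
Tnni1, chr13:49781279-49781528: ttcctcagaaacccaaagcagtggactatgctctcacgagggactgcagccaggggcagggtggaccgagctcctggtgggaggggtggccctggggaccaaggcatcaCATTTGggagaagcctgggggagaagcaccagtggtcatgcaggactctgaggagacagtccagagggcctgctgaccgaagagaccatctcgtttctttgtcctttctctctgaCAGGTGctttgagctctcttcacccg
Tnnt2, chr13:49818873-49819122: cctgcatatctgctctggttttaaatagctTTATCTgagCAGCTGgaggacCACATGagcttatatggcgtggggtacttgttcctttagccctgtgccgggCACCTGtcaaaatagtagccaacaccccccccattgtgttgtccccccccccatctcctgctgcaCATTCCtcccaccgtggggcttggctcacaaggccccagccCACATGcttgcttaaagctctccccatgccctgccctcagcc

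A set of 6 motifs of muscle promoters was searched on both strands, and no matches overlapped each other in these windows. The TATA box (TATAAA) was in 12.9% of all 33465 promoter windows of the same length, the MCAT motif (CATTCC) in 12.1%, the GATA motif (AGATAA) in 10.3% and the E-box (CANNTG) in 65.5%. The MEF2 site was in 2.96% and the CArG box in 1.497%. The Tnni3 window held 1 GATA match, 22 bases before the start, and no other match. The Tnnt1 window held a TATA box at 30 bases and E-boxes at 163 and 156 bases. The Tnni1 window held E-boxes only, at 141 and 26 bases. The Tnnt2 window was the one with most matches among these 4, an MCAT motif at 83 bases, a GATA match at 220 bases and E-boxes at 211, 199, 148 and 42 bases. Neither a MEF2 site nor a CArG box was in any of the 4 windows. These are matches of letters and were not tested as sites. Tnni2, Tnnc2, Tpm1 and Tpm2 also had an entry in the promoter table, while Tnnc1 and Tnnt3 had none. Another start is listed for Tnnt2 and is not shown.

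Of the 10 genes, 9 (14 of 15 probes) gave a signal well above background on all 6 arrays. All values below are log2 signals scaled so that 0 is the 75th percentile of all probes on the same array. A probe's level depends on its own affinity, and levels are therefore not ranked between genes. The exception was Tnnt3, fast skeletal troponin T, whose single probe failed the background call on every array. Its listed values were -4.30, -5.79 and -4.90 in the control arrays and -4.60, -4.85 and -6.19 in the C3a arrays, and it was not tested.

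The labelled cell type was checked against its markers. All 10 cardiomyocyte markers were well above background on all 6 arrays, and their summed linear signal, in units of the 75th percentile, ranged from 3420 to 4426 in the control and from 4234 to 4761 in the C3a arrays. Of the 10 skeletal muscle markers with a probe, only Myf5, a myogenic transcription factor, and Ckm, the muscle creatine kinase that heart also uses, were above background on all arrays. Myog, Myh1 and Myh4 were above background on 5 of the 6 arrays, while Myod1, Myf6, Pax7 and Myh2 were above background on none. The summed skeletal muscle markers, mostly Ckm, ranged from 238 to 312 in the control and from 304 to 323 in the C3a arrays. Their part in the signal of the skeletal forms Tnni2, Tnnc2 and Tnnt1 was not tested.

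Cardiac troponin I, Tnni3, measured 8.73, 8.36 and 8.69 in the control arrays and 8.84, 8.74 and 8.59 in the C3a arrays. The groups overlapped, with control replicate 2 the lowest of the 6 arrays. The means were 8.60 ± 0.20 (SD, n = 3) and 8.72 ± 0.12 (SD, n = 3), a difference of 0.13 (SE 0.13, limma adjusted p = 0.783).

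The fetal form, Tnni1, measured 7.40, 7.08 and 7.21 in the control arrays and 7.34, 7.31 and 7.11 in the C3a arrays. Both the highest and the lowest value were controls. The difference of 0.027 (SE 0.12, limma adjusted p = 0.953) was the smallest among the 9 genes, with a 95% confidence interval from -0.26 to 0.31, or 0.835-fold to 1.24-fold. Fast skeletal Tnni2 measured 0.12, -0.63 and -0.13 in the control arrays and 0.082, -0.23 and -0.18 in the C3a arrays. Its control arrays spread so widely (SD 0.39, n = 3) that they enclosed all 3 C3a arrays, and the difference was 0.10 (SE 0.20). Without control replicate 1, its highest array, the difference was 0.27, and without control replicate 2, its lowest, it was -0.11.

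Cardiac troponin T, Tnnt2, which ties the complex to tropomyosin, measured 9.99, 9.58 and 9.92 in the control arrays and 10.11, 9.91 and 10.10 in the C3a arrays. Again control replicate 2 was the lowest, while C3a replicate 2 lay just below the other control arrays, so the groups overlapped. The difference was 0.21 (SE 0.14, limma adjusted p = 0.743). Slow skeletal Tnnt1 measured -1.67, -2.39 and -2.002 in the control arrays and -2.22, -1.73 and -1.91 in the C3a arrays. Its values spread over 0.72 in all, and the C3a arrays lay inside the control range (difference 0.068, SE 0.21). Without control replicate 1, its highest array, the difference was 0.24, and without control replicate 2, its lowest, it was -0.12.

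The calcium-binding subunit shared by heart and slow muscle, Tnnc1, measured 9.70, 9.34 and 9.70 in the control arrays and 9.95, 9.66 and 9.86 in the C3a arrays. It had the largest difference of the 9 genes, 0.24 (SE 0.14), and the smallest unadjusted p, 0.122 (limma adjusted p = 0.743), and its groups overlapped because C3a replicate 2 lay below control replicates 1 and 3. The interval ran from -0.084 to 0.57, or 0.943-fold to 1.49-fold. Fast skeletal troponin C, Tnnc2, measured 6.08, 5.79 and 6.21 in the control arrays and 6.29, 6.18 and 6.24 in the C3a arrays. Control replicate 3 lay within the C3a range and the other controls below it (difference 0.21, SE 0.13).

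The tropomyosin genes were read by several probes each. The brightest Tpm1 probe measured 8.67, 8.37 and 8.61 in the control arrays and 8.79, 8.66 and 8.63 in the C3a arrays, a difference of 0.14 (SE 0.11). Tpm1 encodes alpha-tropomyosin, the main form of the rat ventricle. The brightest Tpm2 probe, for beta-tropomyosin, measured 5.01, 4.68 and 4.91 in the control arrays and 5.03, 4.82 and 4.90 in the C3a arrays, a difference of 0.049 (SE 0.12). In both genes the groups overlapped and control replicate 2 was lowest.

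**Figure D1:**
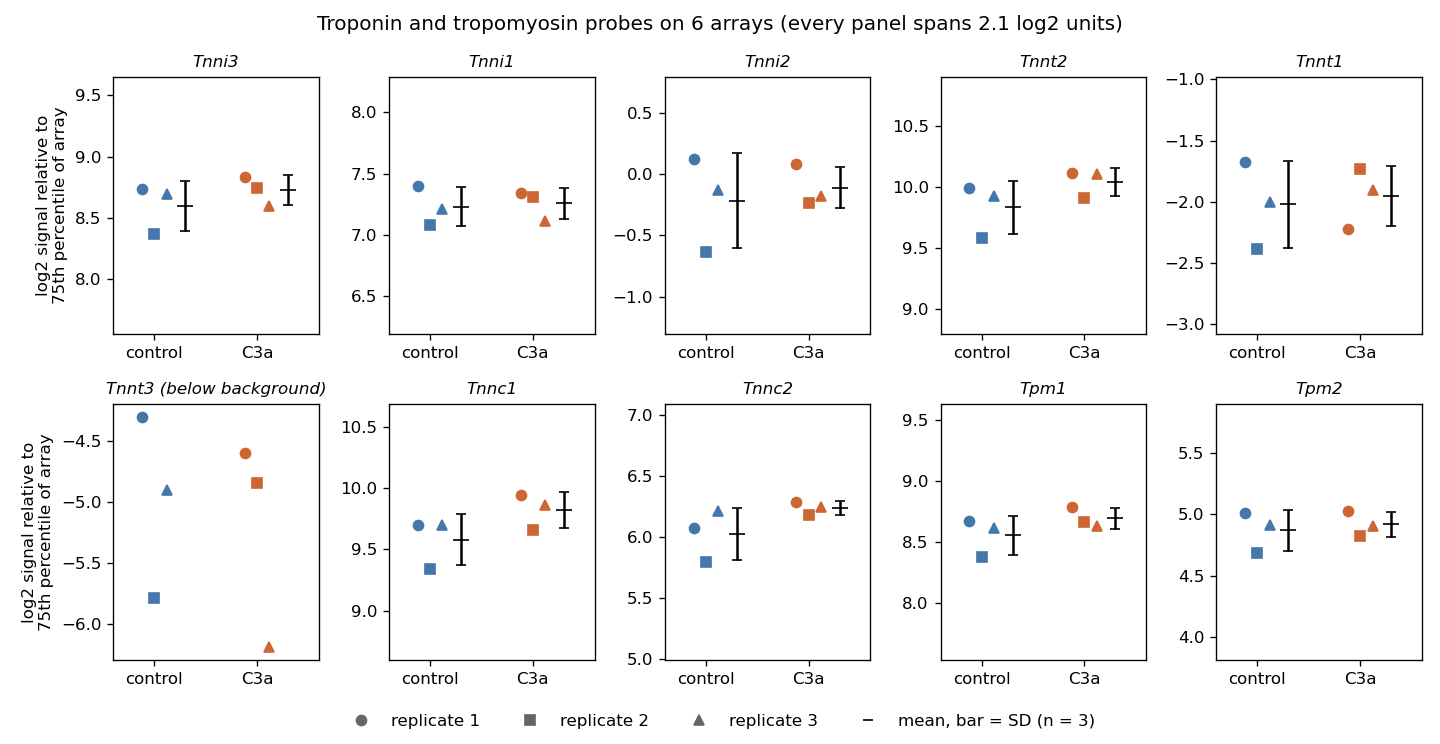
The brightest probe of each of the 10 genes is plotted as its log2 signal, with the 75th percentile of the array at 0, for the 3 control and 3 C3a cultures, with the mean and SD beside the points except for Tnnt3, which was below background. In the 9 genes above background the control and C3a points overlap, and the square of control replicate 2 is the lowest of the 6 points.

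None of the 9 genes passed an adjusted p of 0.05, and none passed an unadjusted p of 0.05. Across all 23438 probes tested, 0% passed the adjusted threshold and 5.82% the unadjusted one, 3.34% higher and 2.48% lower with C3a, so the members' count of 0 did not stand apart from the background. That split of all probes, 783 higher and 581 lower, was 565 and 725 with the percentile over detected probes and 41 and 2558 without scaling. The adjusted p of the members ran from 0.743 to 0.953, where the smallest of all probes was 0.697. None of the 9 genes and 1 of the 14 probes had groups that did not overlap, against 12.5% of all probes. Under the 75th percentile scaling, the lowest end of the 9 confidence intervals was 0.747-fold, for Tnnt1, and the highest 1.49-fold, for Tnni2. With the replicate number as a block, 1 of the 9 genes, Tnnc1, passed the unadjusted threshold (limma adjusted p = 0.340), as did 3198 of all probes (13.6%).

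**Figure D2:**
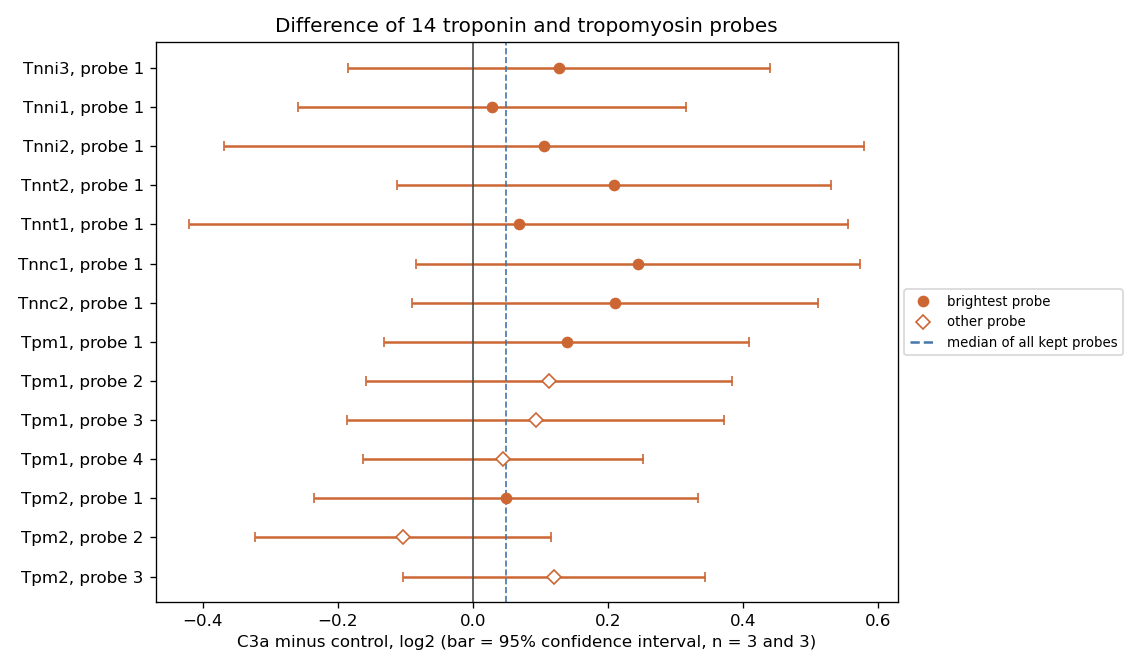
The C3a minus control difference of the 14 probes above background is plotted on the log2 scale with its 95% confidence interval (3 arrays a group), filled for the brightest probe of a gene. Every interval includes 0, and the dashed line at 0.048 marks the median of all 23438 probes.

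The 9 differences lay above 0, between 0.027 and 0.24 with a median of 0.13, where 62.3% of all probes were above 0. The direction depended on the arrays included and on the scaling. Over all probes the median difference was 0.048, and 8 of the 9 genes lay above it. Control replicate 2 gave the lowest scaled value for 9 of 9 genes and 12 of 14 probes, against 37.3% of all probes. Its 75th percentile intensity was the highest, 367 against 207 to 288 on the other arrays. Before scaling, its signal was the highest of the 6 arrays for Tnni1, Tnnt2, Tnnc1, Tpm1 and Tpm2. It was not the highest for Tnni3, Tnni2, Tnnt1 and Tnnc2. On that array the genes deviated from their own mean over the 6 arrays by a median of -0.34, where the median deviation of all probes was -0.071. Without control replicate 2 the median difference of the members was 0.010, with 5 genes above 0 and 4 below, from -0.12 for Tnnt1 to 0.12 for Tnnc1. Without C3a replicate 1 or without C3a replicate 2, 7 genes were above 0 and 2 below, Tnni1 in both cases, with Tpm2 in the first and Tnnt1 in the other. The summed scaled signal of the cardiomyocyte markers was also lowest on control replicate 2, at 3420 against 4094 to 4761 on the other arrays. So were the sums of the skeletal muscle, smooth muscle, fibroblast and endothelial markers. Their part in the result was not tested.

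**Figure D3:**
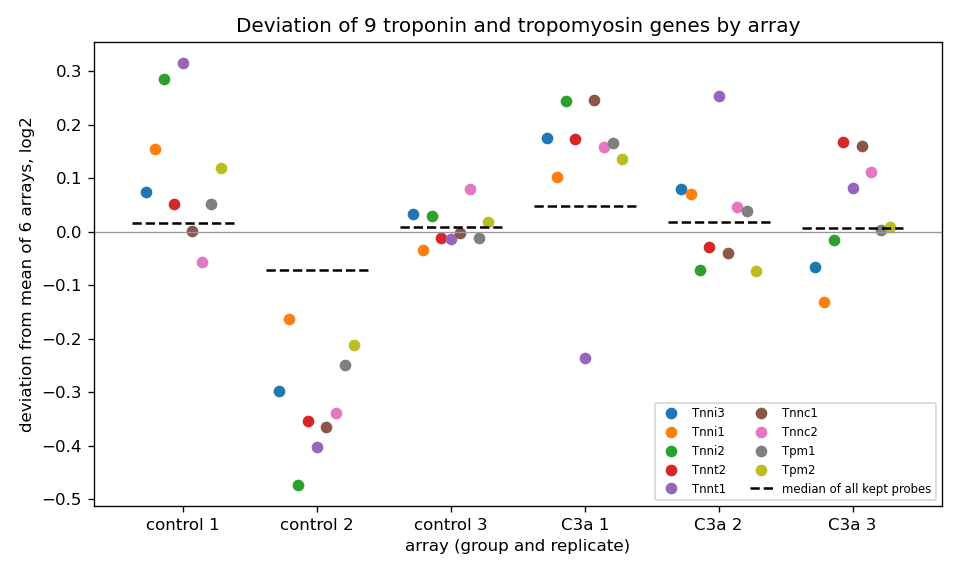
The deviation of each of 9 genes from its own mean over 6 arrays is plotted on the log2 scale for each array, with a dashed line at the median of all kept probes. On control replicate 2 all 9 genes lie below 0 and below the dashed line.

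Quantile normalization left 4 genes above 0, 4 below and Tnnt2 at 0, and 4 above the median of all probes. With the percentile taken over detected probes, 8 were above 0 and Tnni1 below. Without any scaling between arrays all 9 genes were below 0, from -0.30 to -0.081, beside a median of all probes of -0.28. Scaling to 7 spike-in probes also put all 9 below 0, from -0.43 to -0.21, beside a median of -0.41. Both of these settings shift every probe by the same amount, so they move the zero and leave the order of the genes and their place against the median as they were. No direction is given for any of these genes. In cultures of mixed cells, fewer cells of a type and less RNA per cell cannot be told apart, and slide position and treatment cannot be told apart either, since each group had its own side of the slide.

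**Figure D4:**
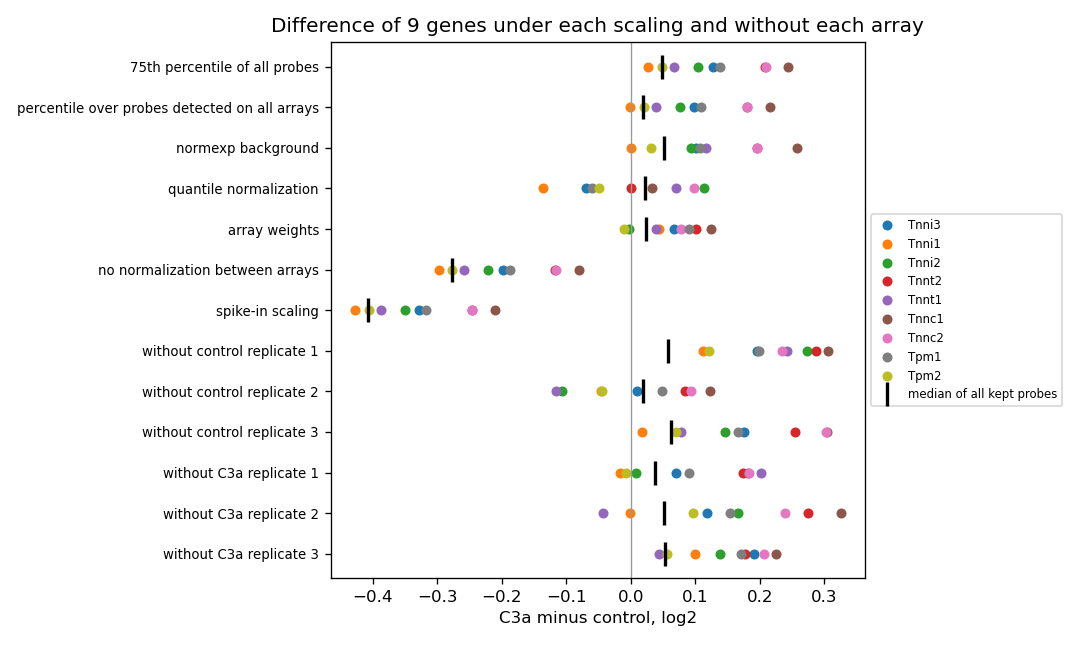
The C3a minus control difference (log2) of 9 genes is plotted for each way of scaling and with each array left out, with a black bar at the median of all kept probes. Points lie on both sides of 0 under quantile normalization, the detected-probe percentile and array weights and without control replicate 2, C3a replicate 1 or C3a replicate 2, and all lie below 0, with the median, without scaling or with spike-in scaling.

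Differences between isoform genes were compared within each array, which removes any scaling by 1 factor per array. Their size depends on the affinities of both probes and is no ratio of mRNAs, so only the change between groups was read. Tnni1 minus Tnni3, the fetal against the adult troponin I, was -1.34, -1.28 and -1.48 in the control arrays and -1.49, -1.43 and -1.48 in the C3a arrays. Control replicate 3 lay among the C3a arrays and the groups overlapped. The mean went from -1.37 ± 0.10 to -1.47 ± 0.034 (SD, n = 3 each), a change of -0.10 that did not pass (exact two-sided permutation p = 0.3, 0.75 adjusted over 5 pairs). It was lower with C3a in 2 of the 3 pairs of same-numbered arrays (exact sign-flip p = 0.5, where 3 pairs allow no p below 0.25). With 3 arrays against 3 the smallest possible p was 0.1.

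Tpm2 minus Tpm1, beta-tropomyosin against alpha-tropomyosin, was -3.66, -3.69 and -3.70 in the control arrays and -3.76, -3.84 and -3.72 in the C3a arrays. This was the single pair of the 5 whose groups did not overlap, and it was lower with C3a in 3 of 3 same-numbered pairs (exact sign-flip p = 0.25). The change of -0.090 reached the smallest p the design allows (exact permutation p = 0.1, 0.5 adjusted), and after quantile normalization it was 0.011. The other pairs overlapped: Tnni2 minus Tnni3 changed by -0.023, Tnnt1 minus Tnnt2 by -0.14 and Tnnc2 minus Tnnc1 by -0.035, with exact permutation p of 1, 0.5 and 0.8. Outside the family, Acta1 minus Actc1, the skeletal against the cardiac actin, changed by -0.52 (exact permutation p = 0.2), and Myh7 minus Myh6, the slow against the fast ventricular myosin, by -0.064 (exact permutation p = 0.1). Both were lower with C3a in 3 of 3 same-numbered pairs (exact sign-flip p = 0.25 each), and the groups of Myh7 minus Myh6 did not overlap. The change in the troponin I pair was thus between these in size.

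**Figure D5:**
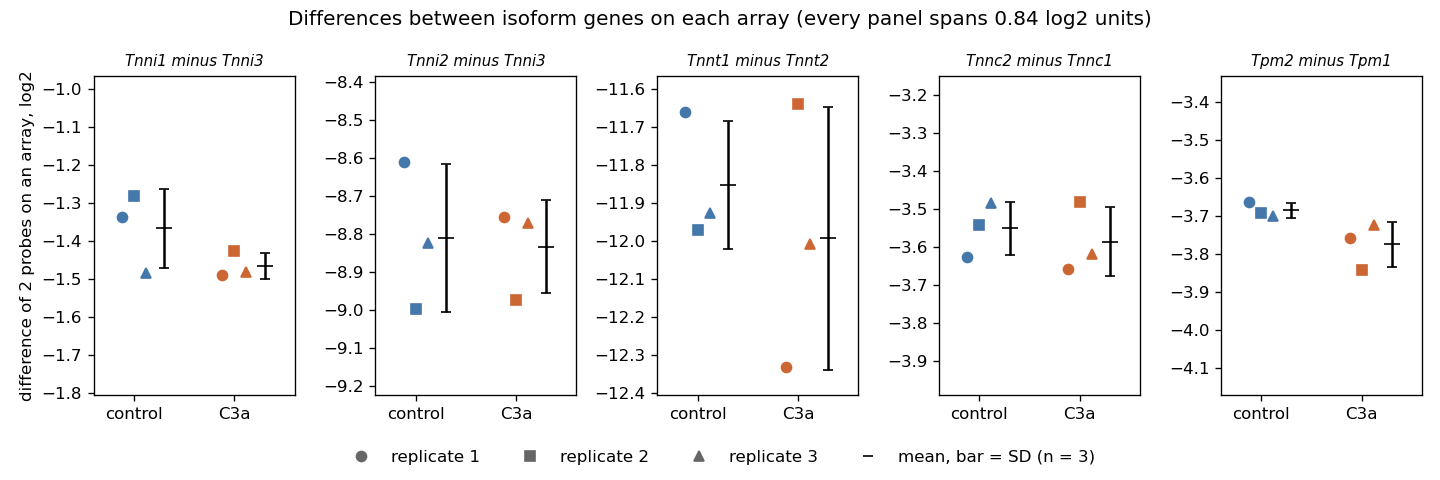
The difference between the probes of 2 isoform genes on the same array (log2) is plotted for 5 pairs, with the mean and SD of the 3 control and 3 C3a arrays beside the points. Tpm2 minus Tpm1 is the one panel where the groups do not overlap, with control replicate 3 at -3.70 and C3a replicate 3 at -3.72 the nearest arrays.

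The probes of 1 gene did not all run together. The 3 Tpm1 probes designed on the same transcript record had differences of 0.14, 0.11 and 0.093, and the distance of the others from the brightest stayed between -0.26 and -0.14 on all 6 arrays. The fourth Tpm1 probe, on another transcript record and spotted 10 times, measured 3.73, 3.69 and 3.72 in the control arrays and 3.77, 3.70 and 3.81 in the C3a arrays. It did not share the low value of control replicate 2 to the same extent: its range over the 6 arrays was 0.12, against 0.41 for the brightest Tpm1 probe. Its spots on 1 array had an SD of 0.039 to 0.068.

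Tpm2 was read by 3 probes. The second probe measured 3.79, 3.62 and 3.69 in the control arrays and 3.62, 3.61 and 3.56 in the C3a arrays. The nearest control and C3a values differed by less than the rounding shown. It was the only one of the 14 probes with groups that did not overlap and the only one with a difference below 0, at -0.10 (SE 0.093, limma adjusted p = 0.760). The third probe, on another transcript record, measured -1.03, -1.11 and -1.13 in the control arrays and -1.05, -0.88 and -0.99 in the C3a arrays, a difference of 0.12 (SE 0.095). Which exons or isoforms these probes read was not analysed here.

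The members varied together across the 6 arrays, described here by Pearson's r with no test, since all values share array scaling and the low control replicate 2. Tnnt2 and Tnnc1 had r = 0.983, Tnni2 and Tpm2 0.984, and Tnni3 and Tpm1 0.967. Tnni1 and Tnni3 had r = 0.847, and Tnni1 and Tnnc2 0.411. The r of Tnnt1 with the other members ran from 0.314 with Tnnc1 to 0.540 with Tnni1.

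Among the 10381 other genes compared, those most like Tnni3 across the 6 arrays were Mdp1, Ocel1, Scgb1c1 and Ech1, with r from 0.997 to 0.998. Those most like Tnni1 were Znhit6, Anks1a, Mlst8, Nr2c2ap and Urod, with r from 0.992 to 0.995. At a looser cut, 1196 genes had r over 0.9 with Tnni3 and 554 with Tnni1. All of these values come from 6 arrays that share array scaling and the low control replicate 2.

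Of the other thin filament genes, 13 of 18 were above background and tested, and 0 passed in either direction at the adjusted or the unadjusted p. Their median difference was -0.095, beside 0.048 for all probes and 0.13 for the members, with 4 of 13 above 0, against 62.3% of all probes. Cfl2, the muscle cofilin that severs actin, was at -0.36 (SE 0.16, limma adjusted p = 0.743) and was the only one of the 13 whose groups did not overlap, against 12.5% of all probes. Acta1, skeletal actin, was at -0.35 (SE 0.19) and Actn2, the Z-disc actinin, at -0.30 (SE 0.19). Tmod1, which caps the pointed end of the filament, was at -0.19 (SE 0.11), and cardiac actin Actc1 was highest at 0.16 (SE 0.11). The other tropomyosin genes, Tpm3 and Tpm4, were at -0.095 (SE 0.092) and -0.15 (SE 0.11). Under quantile normalization Cfl2, Acta1, Actn2 and Tmod1 were below 0 as well, and so was Actc1. With the replicate block, Cfl2, Acta1 and Actn2 passed the unadjusted threshold and none the adjusted one, beside the 13.6% of all probes.

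Among kinases and phosphatases that act on thin filament proteins, 12 of 15 were tested, with a median of 0.016 and 0 past either threshold. Prkaca and Prkacb, the catalytic subunits of protein kinase A that phosphorylates cardiac troponin I, were at 0.24 (SE 0.11) and 0.17 (SE 0.094). They were the 2 of the 12 whose groups did not overlap, against 12.5% of all probes. Both were above 0 under quantile normalization and below 0 without scaling and with spike-in scaling, where the median of all probes was -0.28 and -0.41. Prkg1, the cGMP-dependent kinase, was at -0.48 (SE 0.30) and Stk4 at 0.27 (SE 0.15). Both were dim, above background on 2 of 3 control arrays, and passed the filter through the C3a arrays only. Prkg1 measured -2.41, -3.49 and -3.30 in the control arrays and -3.73, -3.73 and -3.17 in the C3a arrays.

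Among the transcription factors of these genes, 11 of 12 were tested, with a median of 0.094 and 1 of 11 past an unadjusted p of 0.05, against 5.82% of all probes. This was Tbx20, a T-box factor of the heart, which measured -0.62, -0.81 and -0.23 in the control arrays and -0.026, -0.39 and 0.22 in the C3a arrays. The highest control array lay above the lowest C3a array. The difference was 0.49 (SE 0.20, limma adjusted p = 0.743), and it was 0.49, 0.16 and 0.032 under quantile normalization, no scaling and spike-in scaling. Splicing regulators of Tnnt2 and Tpm1 were all tested, 11 of 11, with a median of 0.081 and 0 past either threshold. Rbfox1 was at 0.24 (SE 0.12), and Celf2 and Mbnl2, the 2 of the 11 whose groups did not overlap (12.5% of all probes), were at 0.12 (SE 0.088) and 0.14 (SE 0.11). All 3 were above 0 under quantile normalization and, like the median of all probes, below 0 without scaling and with spike-in scaling.

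Markers of other cells that such cultures hold were also measured, beside the members' differences. Smooth muscle markers had a summed signal of 46.3 to 53.8 in the control and 50.6 to 52.9 in the C3a arrays, with 4 of 6 above background on all arrays. Their median difference was -0.048, with 2 of 6 above 0. Acta2, smooth muscle actin, was at 0.25 (SE 0.17), and with the replicate block it passed the unadjusted threshold, as did 13.6% of all probes. Smtn was at 0.18 (SE 0.097) and was the only one of the 6 whose groups did not overlap, against 12.5% of all probes. Fibroblast markers had 90.2 to 104 and 90.3 to 106, with 5 of 7 above background throughout. Their median difference was -0.050, with 2 of 7 above 0. Lum, a collagen-binding proteoglycan, was at -0.54 (SE 0.21, limma adjusted p = 0.743). It was the 1 of 7 past the unadjusted threshold, against 5.82% of all probes, and was above background on 2 of 3 control arrays. Endothelial markers had 33.1 to 45.8 and 42.2 to 53.4, all 5 above background throughout. Their median difference was 0.14, with 4 of 5 above 0. Tek, below 0 at -0.23 (SE 0.12), was the only one of the 5 whose groups did not overlap, against 12.5% of all probes. Macrophage markers had 5.64 to 7.08 and 5.52 to 6.05, with 2 of 6 above background throughout and Cd163 on no array. The summed signals of the groups overlapped in every one of these lists, and their part in the members' values was not tested.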

How the data were processed

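RNA of NRVCs was hybridised to 6 arrays, 3 control and 3 C3a, which were grouped by the condition in the sample records. The authors deposited the linear intensity of every spot as Agilent Feature Extraction 11.5.1.1 wrote it, background-corrected but without scaling across arrays. A deposited log2 table of 36638 probes equals the log2 intensity minus the array's 75th percentile to within 0.0062 at the median, without centring (column medians -3.00, -3.11 and -3.05 for the control and -3.13, -3.10 and -3.04 for the C3a arrays). It was used as an alternative.

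Of 62976 spots per array, 4259 control spots and outlier spots were left out and the spots of a probe averaged. None was saturated. From 53.7% to 57.3% of probes were well above background, except on control replicate 1 with 38.6%, where the median local background was 47 against 23 or 24 elsewhere. The number of arrays limits the precision. Log2 signals were taken relative to the 75th percentile of each array. Probes passed the filter when all 3 arrays of either group called them above background, which left 23438. A gene was read by its brightest probe, named through its accession in the GRCr8 gene table (46.3% of 45598 probes matched). The array design uses another assembly, so no probe coordinates are given.

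Differences between C3a and control were fitted with limma 3.58.1 (R 4.3.3, lmFit and eBayes, two-sided p), and p-values were adjusted by Benjamini-Hochberg across the 23438 probes. The fit was tested on simulated data. Isoform differences were tested by an exact permutation test over the 6 arrays. Same-numbered arrays deviated together (r = 0.28, 0.32 and 0.31, against -0.26 to -0.09 for different numbers). Deviations were taken from each group's own mean, so positive r for same numbers brings negative r for different ones. This comes from the values alone, and what same-numbered arrays share was not tested. The main fit and the permutation test did not use the numbers, while the replicate block and the sign-flip test did. Alternatives were quantile, spike-in, detected-probe percentile and no scaling, normexp background (offset 50), other filters, a variance trend, array weights, the methods' test, the replicate block and each array left out. All arrays lay on 1 slide and in 1 scan, so no batch block was possible. From each list, genes past an unadjusted p of 0.05 and at most 4 with the largest differences were named; genes whose groups did not overlap, Actc1, Tpm3 and Tpm4 were named after their values were seen. The members and lists were chosen with earlier results of these data known. The result of 1 gene is not reported here.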

Additional observations from a re-analysis of the deposited data

How the results depend on the processing

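None of the 9 genes passed an adjusted p of 0.05 under any of the 19 alternatives, and 1, Tnnc1, passed an unadjusted p of 0.05 under 2 of them: normexp background (difference 0.26, limma adjusted p = 0.819) and the replicate block (limma adjusted p = 0.340). Quantile normalization put Tnni3 at -0.069, Tnni1 at -0.14, Tpm1 at -0.060, Tpm2 at -0.049 and Tnnt2 at 0. Without scaling, Tnni3, Tnni1, Tnni2, Tnnt2, Tnnt1, Tnnc1, Tnnc2, Tpm1 and Tpm2 were at -0.20, -0.30, -0.22, -0.12, -0.26, -0.081, -0.12, -0.19 and -0.28, and with spike-in scaling at -0.33, -0.43, -0.35, -0.25, -0.39, -0.21, -0.25, -0.32 and -0.41. The percentile over detected probes put Tnni1 at -0.0013, and array weights put Tnni2 at -0.0023 and Tpm2 at -0.0097. Differences with each array left out ranged from -0.047 to 0.11 for Tnni1, -0.11 to 0.27 for Tnni2, -0.12 to 0.24 for Tnnt1 and -0.044 to 0.12 for Tpm2, and stayed above 0 for the other 5. Tnni1 minus Tnni3 stayed below 0 with quantile normalization (-0.066), normexp (-0.10) and each array left out (-0.16 to -0.057). Array weights put Tnni1 at 0.044 and Tnni3 at 0.068, nearer each other than the 0.027 and 0.13 of the main fit. The remaining settings left the change of this pair as it was, up to rounding. Quantile normalization turned Tnni2 minus Tnni3 to 0.18, Tnnt1 minus Tnnt2 to 0.070, Tnnc2 minus Tnnc1 to 0.065 and Tpm2 minus Tpm1 to 0.011, and arrays left out gave -0.12 to 0.078, -0.32 to 0.029 and -0.087 to 0.00096 for the first 3. The cause was not tested.

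Of all probes, 0 passed the adjusted p with limma, 783 (higher) and 581 (lower) the unadjusted p. Adjusted calls numbered 4 without scaling and 4 with spike-in scaling. Unadjusted calls, higher and lower, were 41 and 2558 without scaling, 9 and 1281 with spike-in scaling, and 1832 and 1366 with the replicate block. Lower calls were 356 with normexp and 356 with the methods' test, and calls were 359 higher and 676 lower without the filter, 370 and 639 over probes detected on all 6 arrays, and 565 and 725 with the percentile over detected probes, so the balance of higher against lower calls turned. With each array left out they ranged from 441 to 1263 higher and from 268 to 876 lower, highest without control replicate 3 and lowest without C3a replicate 3. The replicate block changed no other call of a member.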
